A study of Mus musculus with 12 samples.

Results

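The genes described here are the mouse genes whose symbols begin with Dnah or Cfap followed by a number, 42 of the 31053 genes listed in the files. They comprise 16 Dnah symbols, of which 15 are dynein axonemal heavy chain genes and 1, Dnah2os, is an antisense transcript of Dnah2, and 26 Cfap symbols (cilia and flagella associated protein). The rule uses symbols alone and no measured value, and it was set with earlier results of these data known. All 42 had at least 1 unique molecular identifier (UMI, 1 captured RNA molecule) in the 44611 lung nuclei kept. The nuclei came from the frozen lungs of 12 wild-type C57BL/6J mice, each mouse giving its own library, and the 4 groups hold 3 mice each. Mice were 7 weeks old when bleomycin, or PBS as its control, was instilled into the trachea, received the EphB4 inhibitor NVP-BHG712 or vehicle by mouth for 5 days from day 5, and were killed on day 14. The groups are PBS_vehicle, PBS_NVP, Bleo_vehicle and Bleo_NVP, and the study asked whether blocking the receptor EphB4 lessens lung fibrosis. All groups share the strain, the instillation and the oral dosing, and only the instilled agent and the oral agent differ.

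Motile cilia are hair-like projections of airway epithelial cells that beat to move mucus. Each is built on an axoneme, a ring of doublet microtubules around a central pair, and bends when dynein motors on one doublet walk along the next. Outer dynein arms mainly set beat frequency and force, inner arms shape the bend, and the Cfap proteins include parts of the central apparatus, proteins bound inside the doublets and factors that dock or tether spokes and inner arms. Loss of several of these genes causes primary ciliary dyskinesia, in which mucus clearance fails. In the lung these genes are known from multiciliated cells of the airways.

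Promoter windows of RefSeq genes (build GRCm38.p6, 250 bases before to 50 after the start of transcription) were matched for 34 of the 42 genes. Cfap157, Cfap53, Cfap54, Cfap65, Cfap73, Cfap97, Dnah2os and Dnah3 were not matched. On either strand, the X-box half-site GTTGCC, the short core of the site bound by RFX factors of ciliated cells, stood in at least 1 window of 11 of the 34 genes (32.4%) and of 14.1% of all 27025 genes. The spaced form, GTNNCC and GGNAAC with 2 bases between, whose letters can overlap the half-site, was found for 1 of the 34 (2.94%) and 1.49% of all genes, and the forkhead letters GTAAACA for 3 (8.82%) and 4.05%. The 11 genes with the half-site include Dnah7a, Dnah7b and Dnah7c, which are near-identical copies and were counted separately. These shares describe letters only and were not tested. The windows below are those of Cfap44, which had the highest level per kilobase in ciliated nuclei, Cfap74 and Dnah11, the genes called between groups in ciliated nuclei and in the whole lung, and Cfap206, the gene with the spaced form. Capitals mark motif matches and positions count from the first base shown. Cfap44 (chr16:44394549-44394848, plus strand) has half-sites at 122 and 232, Cfap74 (chr4:155408940-155409239, plus strand) at 135 and 264, Cfap206 (chr4:34730157-34730456, minus strand) the spaced form at 228, and Dnah11 (chr12:118198994-118199293, minus strand) none of the 3.
Cfap44: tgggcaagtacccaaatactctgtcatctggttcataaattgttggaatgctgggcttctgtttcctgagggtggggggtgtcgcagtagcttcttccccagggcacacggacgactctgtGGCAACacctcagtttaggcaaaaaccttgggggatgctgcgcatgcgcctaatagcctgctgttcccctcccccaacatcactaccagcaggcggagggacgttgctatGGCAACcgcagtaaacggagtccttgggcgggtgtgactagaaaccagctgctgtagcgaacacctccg
Cfap74: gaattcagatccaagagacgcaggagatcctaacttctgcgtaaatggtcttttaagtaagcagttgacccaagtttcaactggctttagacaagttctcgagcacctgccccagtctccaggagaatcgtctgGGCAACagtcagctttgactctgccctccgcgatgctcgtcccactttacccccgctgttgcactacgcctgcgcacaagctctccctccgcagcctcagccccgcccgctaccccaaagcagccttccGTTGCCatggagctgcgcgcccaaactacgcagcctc
Cfap206: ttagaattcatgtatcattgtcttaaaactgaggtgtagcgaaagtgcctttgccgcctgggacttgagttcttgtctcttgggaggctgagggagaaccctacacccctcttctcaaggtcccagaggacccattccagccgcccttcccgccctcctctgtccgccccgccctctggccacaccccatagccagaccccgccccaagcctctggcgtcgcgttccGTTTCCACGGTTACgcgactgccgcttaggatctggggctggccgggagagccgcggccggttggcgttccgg
Dnah11: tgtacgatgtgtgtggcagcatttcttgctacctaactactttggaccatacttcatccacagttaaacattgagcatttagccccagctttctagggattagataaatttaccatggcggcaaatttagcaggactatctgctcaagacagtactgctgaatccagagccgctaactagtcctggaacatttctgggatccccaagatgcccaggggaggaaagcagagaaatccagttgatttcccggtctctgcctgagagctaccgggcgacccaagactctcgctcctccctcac

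Libraries held between 3556084 and 61947690 UMIs, and no pair shared more than 0.845% of its barcodes. Nuclei were clustered without the 42 genes, and the cluster led by Rp1, Lrriq1, Ttc29 and Zbbx, the 4 ciliated markers used, is called ciliated (1681 nuclei against 42930 others). The same markers named the cluster, so their share in its nuclei describes it and is no independent check. In 10 libraries 84.0% to 100% of ciliated nuclei had at least 2 of the markers. Bleo_vehicle 1 and 2 stood apart. There the share was 19.5% and 64.2%, and Rp1 reached 331 and 651 CPM (UMIs of a gene per 1e6 UMIs of the sum) against 2249 to 2810 in the other 10. These libraries carry batch number 6 and Bleo_vehicle 3 carries batch number 7. The Bleo_NVP libraries all carry run number 4, and the PBS libraries carry other run numbers. Whether batch and run numbers count the same thing is not known. Batch or run cannot be told apart from group in any comparison with a bleomycin group. The main results of such comparisons are given with and without Bleo_vehicle 1 and 2. Leaving them out leaves Bleo_vehicle 3 as the only mouse of its group. Only the size or sign of a difference is therefore given for those fits. Names of cell classes were rebuilt from markers.

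Ciliated nuclei held the highest level of most of the genes. The 42 genes took 2.97% of all UMIs in ciliated nuclei and at most 0.0923% in any other class, where that highest value belonged to nuclei left unnamed. For 38 of the 42 the ciliated class had the highest level, the others being Cfap97, Dnah8, Dnah17 and Dnah2os. A ciliated nucleus held a median of 22 of the genes (median depth 2407 UMIs) and any other nucleus a median of 1 (2543 UMIs). Thinned to 1000 UMIs each, which left out 370 ciliated and 7148 other nuclei, the medians were 16, with 9 and 19 as the 10th and 90th percentiles, and 0. At that depth 96.0% of ciliated and 0.12% of other nuclei had at least 5 of the genes. No test is given for clusters against each other.

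**Figure D1:**
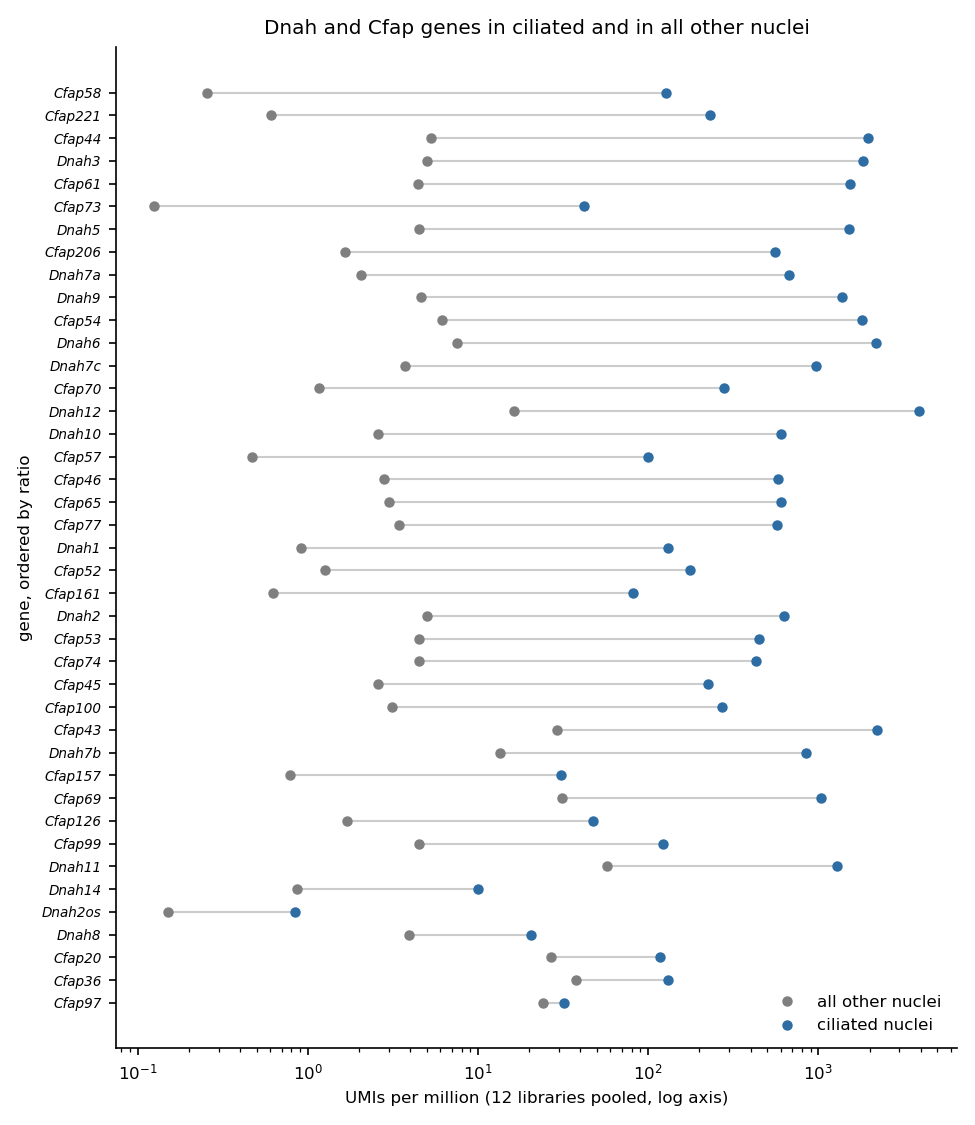
CPM of each of the 42 genes other than Dnah17 in ciliated nuclei (blue) and in all other nuclei (grey), 12 libraries pooled, on a log axis, ordered by the ratio of the 2. The 2 colours lie far apart for most genes, and Cfap97 (31.9 and 23.9 CPM) lies at the foot with nearly equal levels. Dnah17 is not drawn because its ciliated count was 0.

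Of the heavy chains of the outer arm, 3 were far higher in ciliated than in other nuclei and 2 are known from sperm. Levels below are CPM in ciliated nuclei, given as the mean ± SD of the 12 libraries. Dnah5 (ENSMUSG00000022262), the outer arm chain shared along the whole cilium, averaged 1608 ± 552, from 539 in the lowest library through a median of 1674 to 2358. Dnah9, its partner towards the tip, averaged 1422 ± 489, and Dnah11, its partner towards the base, 1300 ± 421. Per kilobase of gene span these were 5.99 ± 2.06, 4.22 ± 1.45 and 4.05 ± 1.31 CPM, and the differences were smaller than the SD of Dnah5. That SD is a spread between libraries, in which the genes were measured together. It does not measure the difference between genes within a library, which was not tested. Pooled over libraries, Dnah5 was 338-fold and Dnah9 299-fold above all other nuclei, whereas Dnah11 was 22.6-fold above them. Dnah8 and Dnah17 are known as the outer arm chains of sperm flagella. Dnah8 averaged 22.2 ± 18.8 in ciliated nuclei, and Dnah17 had no UMI there, which allows up to 3 of the 5993660 ciliated UMIs for counting error alone, and 116 UMIs elsewhere.

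The 9 inner arm chains were measured in the same way. The heavy chains of the double-headed inner arm, Dnah2 and Dnah10, had 592 ± 172 and 593 ± 150 CPM in ciliated nuclei, or 4.62 ± 1.34 and 5.43 ± 1.37 per kilobase. These differed by less than their spread between libraries, and the difference within libraries was not tested. Among the single-headed chains Dnah12 averaged 4107 ± 1392, from 1300.3 in the lowest library through a median of 4527 to 5974, while Dnah6 averaged 2190 ± 705 and Dnah3 1878 ± 579. Dnah7a, Dnah7b and Dnah7c are near-identical copies on chromosome 1 whose reads the counting could split or drop, so their levels of 663 ± 238, 861 ± 282 and 989 ± 315 are uncertain. Dnah1 averaged 132 ± 55.0, or 2.08 ± 0.87 per kilobase. All of these chains were higher in ciliated than in other nuclei in 12 of 12 libraries, with the exception of Dnah1 (11 of 12). Dnah14, placed in no arm here, averaged 9.14 ± 7.38, and Dnah2os had 5 UMIs in ciliated nuclei. Dnah2os lies inside Dnah2 on the opposite strand, and the strand setting of the counting is not given in the sources used here.

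Between genes, levels are compared per kilobase of gene span, because nuclear RNA is rich in introns and long genes could collect more reads. Whether intronic reads were counted is not given, and whether levels rise with span here was not tested. Cfap44, which tethers inner arms, was first with 23.6 ± 6.34 CPM per kilobase, and Dnah12 second with 20.7 ± 7.01. Their difference was smaller than either spread between libraries, which does not measure the difference of the 2 genes within a library. Cfap65 followed with 19.0 ± 5.02, then Cfap206, a radial spoke factor, with 13.4 ± 5.26. Cfap69, of the central apparatus, had 12.7 ± 4.46 and Cfap43, the partner of Cfap44, 12.5 ± 3.46. Cfap100, a modifier of inner arms, had 11.1 ± 3.35, Dnah3 10.9 ± 3.35 and Dnah6 10.7 ± 3.46. From Cfap206 to Dnah6 neighbours differed by less than their spread between libraries, and their order within libraries was not tested. Cfap45, a protein inside the doublet, had 8.5 ± 3.22 and Cfap74, of the central apparatus, 7.91 ± 2.31. The order depends on the length used. Per kilobase of exon Dnah12 had rank 1, Cfap43 rank 2 and Cfap44 rank 3, and Cfap65 moved from rank 3 to 15.

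Some Cfap genes were not particular to ciliated nuclei. Cfap97 was 1.33-fold higher there than in other nuclei, only 4.98% of its UMIs came from ciliated nuclei, and its highest class was alveolar type II (60.3 against 31.9 CPM). Cfap36 had a ratio of 3.45 and Cfap20, which closes the inner junction of the doublet and belongs to non-motile cilia as well, 4.39. Cfap99 (27.1) and Cfap126 (27.8), a protein of the doublet lumen, came next. At the other end stood Cfap58, at 498-fold, and Cfap221, of the central apparatus, at 384-fold.

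The markers allowed a test that did not use the 42 genes or the clusters. In each library, UMIs of nuclei with at least 2 of the 4 markers were summed and set against those of nuclei with none, with the library as a block, in the quasi-likelihood test of edgeR with Benjamini-Hochberg adjustment over all genes. Without a filter on low counts all 42 genes were tested, and 40 were called higher at an adjusted p under 0.05, against 14.2% of all genes. Cfap97 did not pass (log2 difference 0.37 ± 0.18 SE, adjusted p = 0.129), and Dnah17 was lower (-5.23 ± 1.58, adjusted p = 0.0197), a fitted value of a gene with few UMIs. The median log2 difference was 7.08. With the filter, 34 genes remained and all 34 were called higher, against 25.2% of genes, a count partly fixed by the filter, which such a gene could pass through the marker-positive sums alone. Their median was 7.37 and that of all genes -0.12. Cfap44 differed by 8.93 ± 0.49 (adjusted p = 4.6e-10) and was higher in 12 of 12 libraries. Dnah11 differed by 4.27 ± 0.19 (adjusted p = 4.13e-13) and Cfap97 by 0.57 ± 0.18 (adjusted p = 0.0102, higher in 10 of 12). Of 63 other cilia genes in 6 lists (dynein intermediate and light chains, assembly factors, docking and nexin links, radial spokes and central pair, doublet proteins and kinesins, and transcription factors of ciliogenesis), 38 passed the filter and 38 were called higher, with a median of 7.00, a count partly fixed in the same way. Without the filter 62 of the 63 were tested and 62 were called higher, with a median of 6.65.

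**Figure D2:**
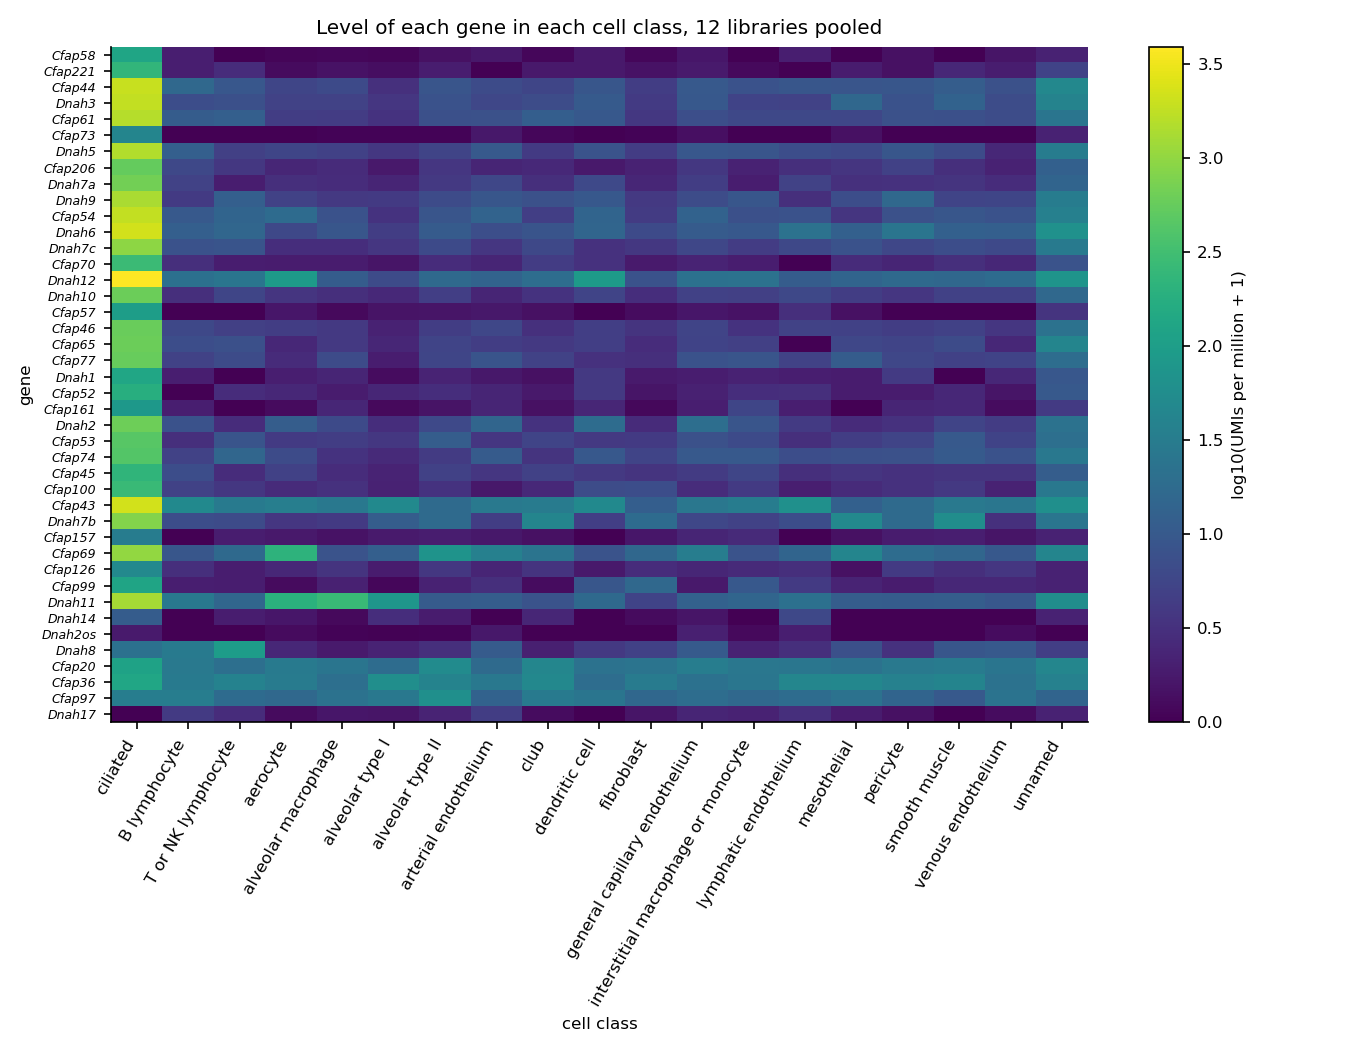
Level of each of the 42 genes (rows, in the order of the ratio of ciliated to other nuclei) in each of the 19 classes (columns) as log10 of CPM plus 1, 12 libraries pooled. The ciliated column is bright for nearly all rows, and Dnah11, Cfap69 and Cfap43 show further signal, with Dnah11 at 271 CPM in alveolar macrophages.

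Dnah11 had clear signal in classes other than the ciliated one. Only 47.0% of its UMIs came from ciliated nuclei, 20.1% from alveolar macrophages, 18.3% from alveolar type I cells and 9.52% from aerocytes, the capillary endothelial cells of gas exchange. Its pooled level was 1288 CPM in ciliated nuclei, 271 in alveolar macrophages, 198 in aerocytes and 74.8 in alveolar type I, with a median of 12.9 over the classes other than ciliated. Dnah12, 3895 CPM in ciliated nuclei, had 10.2 in alveolar macrophages. The signal was present across mice. In aerocytes the level of Dnah11 was above that of the remaining non-ciliated nuclei in 12 of 12 libraries, in alveolar macrophages in 11 and in alveolar type I in 8. The files count UMIs over the whole gene, so which exons of Dnah11 were read in macrophages is not known here.

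Other genes had smaller signals of this kind. Cfap69 was at 211 CPM in aerocytes (15.2% of its UMIs) and 68.7 in alveolar type II (9.42%), each above the remaining non-ciliated nuclei in 12 of 12 libraries. Dnah12 was at 89.1 in aerocytes, also in 12 of 12, and at 88.1 in dendritic cells, from 120 UMIs. Dnah7b reached 56.1 in smooth muscle, 48.5 in mesothelial and 42.5 in club nuclei. The highest class of Dnah8 was T or NK lymphocytes, with 96.0 CPM from 102 UMIs against 20.5 in ciliated nuclei. Of Dnah17, the highest class, arterial endothelium, held 5 UMIs.

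Whether the 4 groups differed was first asked within ciliated nuclei, where the size of the cluster does not enter but its make-up does. None of the 4 markers was found in 39.0% of its nuclei in Bleo_vehicle 1 and 13.3% in Bleo_vehicle 2. In every other library this share was at most 5.04%. The 42 genes took 3.2, 3.59 and 3.82% of the UMIs of ciliated nuclei in PBS_vehicle, 3.14, 3.28 and 3.39% in PBS_NVP, 1.23, 1.08 and 3.08% in Bleo_vehicle and 3.56, 3.45 and 3.57% in Bleo_NVP. Bleo_vehicle 1 and 2 lay below every other library, while Bleo_vehicle 3 lay just under the lowest PBS library. Other measures of these nuclei were taken beside this share. The 6 other cilia lists together took 0.637 and 0.751% of ciliated UMIs there, against 2.16% in Bleo_vehicle 3 and 2.30 to 2.58% in the remaining 9. The median mitochondrial share of ciliated nuclei was 2.54, 1.5 and 0.676% in Bleo_vehicle and at most 0.102% elsewhere, so it was raised in all 3. The 6 alveolar type II markers summed to 480, 2191 and 1669 CPM in Bleo_vehicle against 193 to 568 in the other groups, with 2, 0 and 0 of the 6 at 0, and Bleo_vehicle 1 lay inside the range of the other groups. The 7 alveolar macrophage markers summed to 679, 204 and 286 against 125 to 180, with 2, 1 and 1 of them at 0 in Bleo_vehicle and 1 to 5 elsewhere. In Bleo_vehicle 2 further lists also lay above all libraries of the other groups. Among them were the fibroblast markers (2404 against 665 to 1204) and the alveolar type I markers (1348 against 210 to 777). The club markers (1841) lay inside the range of the other groups (1386 to 2291). Among the nuclei of the cluster with at least 2 markers, the share of the 42 genes was still 1.58% (8 nuclei) and 1.11% (154 nuclei) in Bleo_vehicle 1 and 2, and 3.08% in Bleo_vehicle 3. The part of these measures in the result was not tested.

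**Figure D3:**
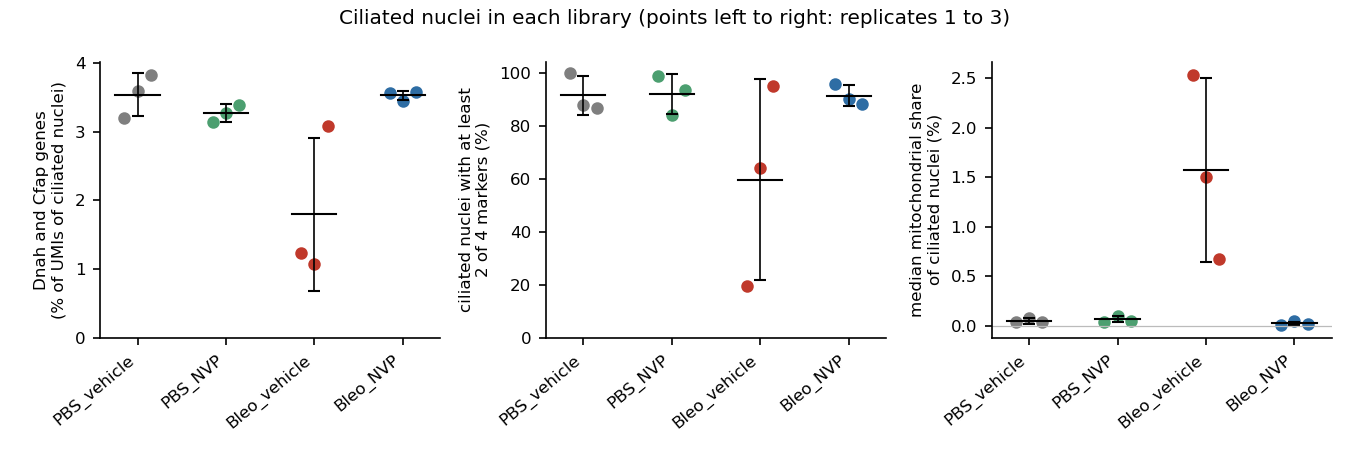
Each point is 1 library, with the group mean and SD as bars, for the share of ciliated UMIs in the 42 genes, the share of ciliated nuclei with at least 2 of 4 markers, and their median mitochondrial share, all in percent. Bleo_vehicle 1 and 2 are the lowest points of the first panel (1.23 and 1.08%) and of the second (19.5 and 64.2%), and the 3 Bleo_vehicle points are the highest of the third.

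Between Bleo_vehicle and PBS_vehicle none of the 38 genes tested in ciliated nuclei passed an adjusted p of 0.05 in edgeR, nor in DESeq2, against 1.83% of all 5948 genes. At an unadjusted p under 0.05, 21 were lower in Bleo_vehicle (7.03% of all genes were lower at that level), and 19 had groups that did not overlap (18.8% of all genes). The log2 difference was positive for 1 of 38, Cfap126 (49.9% of all genes), with a median of -0.78 against -0.00 over all genes. By role the median was -0.93 for 3 outer arm chains, -0.87 for 6 central apparatus genes, -0.82 for 7 single-headed chains, -0.72 for 7 spoke, tether or modifier genes, -0.61 for both double-headed chains and -0.53 for 6 genes of the doublet lumen or inner junction. Without Bleo_vehicle 1 and 2, which leaves Bleo_vehicle 3 alone in its group, the median was -0.18. Without Bleo_vehicle 3 instead, 31 were called lower (12.5% of all genes in that fit), with a median of -1.43. Of all 38, 31 had their 2 lowest levels among the 12 libraries in Bleo_vehicle 1 and 2.

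In the comparison of Bleo_NVP with Bleo_vehicle 36 of 38 log2 differences were positive, and 1 gene, Cfap74, was called higher in Bleo_NVP (0.387% of all genes were called higher). Cfap74 (ENSMUSG00000078490) lies at chr4:155409190-155466823 on mm10. Scaled by TMM, its ciliated level was 556, 524 and 506 CPM in PBS_vehicle, 490, 530 and 509 in PBS_NVP, 288, 217 and 393 in Bleo_vehicle and 625, 604 and 545 in Bleo_NVP. All Bleo_vehicle values were below all 9 others. The log2 difference between Bleo_NVP and Bleo_vehicle was 0.96 ± 0.27 (edgeR, adjusted p = 0.0485, higher in 3 of 3), and without Bleo_vehicle 1 and 2 it was 0.59. Leaving out any single library other than Bleo_vehicle 3 took the adjusted p over 0.05, to between 0.0552 and 0.455, and the lowest log2 difference of these was 0.72 without Bleo_vehicle 2. Without Bleo_vehicle 3 the difference was 1.41. Cfap69 came next with 1.11 ± 0.34 (adjusted p = 0.0773), and Dnah9 had 1.05 ± 0.37 (adjusted p = 0.119). In the fit without Bleo_vehicle 1 and 2 these were 0.43 and 0.31. On the same TMM scale Dnah5 read 1518, 2011 and 2479 in PBS_vehicle, 1484, 1665 and 2175 in PBS_NVP, 819, 660 and 1704 in Bleo_vehicle and 1860, 1822 and 2159 in Bleo_NVP, a difference of 0.85 ± 0.37 (adjusted p = 0.206), or 0.19 without Bleo_vehicle 1 and 2. The Bleo_NVP values of Dnah5 all exceeded those of Bleo_vehicle, of which the one of replicate 3 lay inside the range of the PBS groups.

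Across the set, 19 of 38 were higher in Bleo_NVP at an unadjusted p under 0.05 (7.83% of all genes), 22 had groups that did not overlap (22.5%) and 36 had a positive log2 difference (51.6%), with a median of 0.77 against 0.03. Without Bleo_vehicle 1 and 2, again with Bleo_vehicle 3 alone in its group, the median was 0.18. Without Bleo_vehicle 3, 30 were called higher (12.4% of genes). The comparison shares its Bleo_vehicle libraries with the one before, so the 2 are not independent. In the absence of bleomycin, PBS_NVP and PBS_vehicle gave 0 calls in edgeR and in DESeq2 (0.0% of all genes), 0 at an unadjusted p under 0.05 (0.857%), 3 without overlap (Cfap65, Cfap57 and Cfap100, 7.31% of all genes) and a median of -0.10. Bleo_NVP against PBS_NVP gave 0 calls in both tools (0.0% of all genes), 0 at an unadjusted p under 0.05 (1.92%), 6 without overlap (9.9%) and a median of 0.10. The interaction, the inhibitor effect after bleomycin minus that after PBS, gave 0 calls in both tools (0.588% of all genes) and 10 of 38 higher at an unadjusted p under 0.05 (3.98%), with a median of 0.89. The interaction median was 0.28 when Bleo_vehicle 1 and 2 were left out, and 1.55 with 27 calls (17.4% of all genes in that fit) without Bleo_vehicle 3. In the 63 other cilia genes, 51 of them tested, none was called in any of these 5 comparisons, and their medians were -0.74 between Bleo_vehicle and PBS_vehicle and 0.75 between Bleo_NVP and Bleo_vehicle. In the fit without Bleo_vehicle 1 and 2, with 52 tested, these medians were -0.18 and 0.17.

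**Figure D4:**
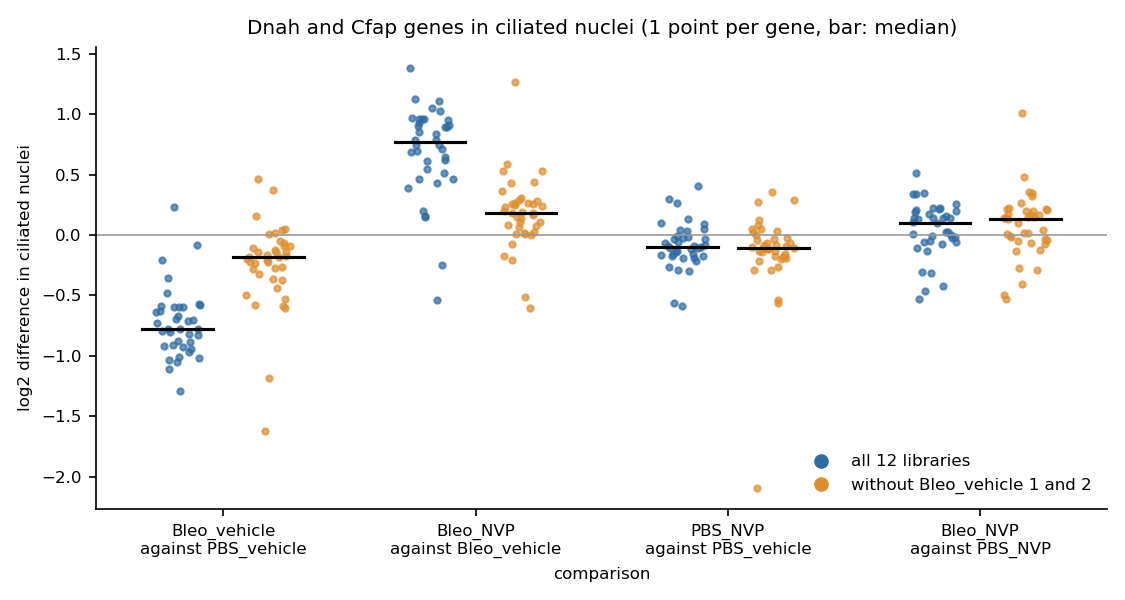
Each point is the log2 difference of 1 gene in ciliated nuclei and each bar the median, for 4 comparisons, from all 12 libraries (blue) and without Bleo_vehicle 1 and 2 (orange). The medians of the 2 comparisons with Bleo_vehicle move from -0.78 to -0.18 and from 0.77 to 0.18, and those of the others stay near 0.

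Over all kept nuclei of the lung, fewer ciliated cells and less RNA per cell cannot be told apart, so the share of ciliated nuclei is given first. It was 1.86, 5.72 and 4.63% of kept nuclei in PBS_vehicle, 2.28, 7.24 and 4.33% in PBS_NVP, 1.84, 3.80 and 4.00% in Bleo_vehicle and 4.11, 5.70 and 4.78% in Bleo_NVP. Bleo_NVP was 1.65 percentage points above Bleo_vehicle with no overlap, at an exact permutation p of 0.1, which is the smallest that 3 against 3 allows (0.4 adjusted over 4 pairs). In the other 3 pairs the groups overlapped. Leaving out Bleo_vehicle 1 brought the difference to 0.962 percentage points, and over all single libraries it ran from there to 2.05. With doublets kept the groups overlapped (1.53 percentage points). They also overlapped when nuclei with at least 2 of the 4 markers were counted instead of the cluster (2.05 percentage points). By the cluster, Bleo_vehicle 3 alone, at 4.00%, also lay below the 3 Bleo_NVP values. By the markers it did not, with 4.15% against 4.02% in Bleo_NVP 1.

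In the whole lung sums, 40 of the 42 genes were tested and 1 was called. Dnah11 (ENSMUSG00000018581), at chr12:117877982-118199043 on mm10, read, scaled by TMM, 88.0, 136 and 131 CPM in PBS_vehicle, 95.5, 126 and 126 in PBS_NVP, 53.5, 71.4 and 94.9 in Bleo_vehicle and 151, 126 and 141 in Bleo_NVP. Bleo_vehicle and Bleo_NVP did not overlap, while Bleo_vehicle 3 lay inside the range of the PBS libraries on this scale and just below it without scaling (96.9 against a lowest PBS value of 97.2). The log2 difference was 0.92 ± 0.22 (edgeR, adjusted p = 0.0328, higher in 3 of 3), where 1.96% of all genes were called higher. It was 0.57 without Bleo_vehicle 1 and 2, with Bleo_vehicle 3 alone in its group. Leaving out Bleo_vehicle 1 (0.74), Bleo_vehicle 2 (0.90) or Bleo_NVP 1, 2 or 3 (0.85, 0.99 and 0.92) each took the adjusted p over 0.05, to between 0.0619 and 0.116. Between Bleo_vehicle and PBS_vehicle Dnah11 had a difference of -0.68 ± 0.22 (adjusted p = 0.123), or -0.33 without Bleo_vehicle 1 and 2. With all libraries 0 of 40 were called in edgeR and in DESeq2 (2.44% of all genes in edgeR), 2 were lower at an unadjusted p under 0.05 (Dnah11 and Cfap65, 7.49% of all genes) and 2 were without overlap (Cfap74 and Cfap20, 20.3%). In that comparison 6 of 40 log2 differences were positive (50.7% of all genes), and the median was -0.51 against 0.01. In the comparison of Bleo_NVP with Bleo_vehicle 13 genes were higher at an unadjusted p under 0.05 (11.2% of all genes), 14 did not overlap (32.9%), 36 of 40 differences were positive (45.7%) and the median was 0.70 against -0.05. Without Bleo_vehicle 1 and 2 these medians were 0.08 and 0.14. Without Bleo_vehicle 3, 9 were called lower in Bleo_vehicle than in PBS_vehicle (3.49% of genes) and 18 higher in Bleo_NVP (6.92%). PBS_NVP against PBS_vehicle gave 0 calls in edgeR and DESeq2 (0.0% of all genes in edgeR), 0 genes at an unadjusted p under 0.05 (0.298%), 0 without overlap (3.07%) and a median of -0.06. Bleo_NVP against PBS_NVP gave 0 calls in both tools (0.0% of all genes), 1 gene, Dnah14, at an unadjusted p under 0.05 (2.75%), 8 without overlap (11.0%) and a median of 0.34. The interaction gave 0 calls in both tools (0.298% of all genes) and 4 higher at an unadjusted p under 0.05 (5.91%), namely Cfap57, Cfap74, Dnah9 and Dnah11. Its median was 0.76, and 0.21 when Bleo_vehicle 1 and 2 were left out.

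In the nuclei outside the ciliated class the highest shares were those of Bleo_vehicle. There the 42 genes took 0.0345, 0.0409 and 0.0378% of the UMIs of other nuclei in Bleo_vehicle and 0.0271 to 0.0334% in the other groups. With all nuclei that had at least 1 of the 4 markers left out as well, Bleo_vehicle read 0.0314, 0.0338 and 0.0359% against 0.026 to 0.0324%, so that Bleo_vehicle 1 fell inside the range of the others. In the sums without ciliated nuclei, Cfap69 was called higher in Bleo_vehicle than in PBS_vehicle (0.97 ± 0.23, adjusted p = 0.0446), 1 of 33 genes tested where 2.05% of all genes were called higher. It was called lower in Bleo_NVP than in Bleo_vehicle (-0.94 ± 0.23, adjusted p = 0.0361), as were Dnah9 (-1.95 ± 0.53, adjusted p = 0.0479) and Cfap43 (-0.54 ± 0.13, adjusted p = 0.0361), 3 of 33 where 3.92% of all genes were called lower. When nuclei with any of the 4 markers were left out too, the difference between Bleo_NVP and Bleo_vehicle no longer passed for Dnah9 (-2.04, adjusted p = 0.0657) or Cfap43 (-0.48, adjusted p = 0.0706), nor did that of Cfap69 between Bleo_vehicle and PBS_vehicle (0.94, adjusted p = 0.0555). Without Bleo_vehicle 1 and 2 the log2 differences from Bleo_vehicle to Bleo_NVP were -0.92 for Cfap69, -1.11 for Dnah9 and -0.57 for Cfap43. That of Cfap69 between Bleo_vehicle and PBS_vehicle was 0.95. Bleo_vehicle 3 was then the only mouse of its group. In aerocytes, its highest class outside the ciliated one, Cfap69 averaged 270 CPM in Bleo_vehicle, 161 in PBS_vehicle and 147 in Bleo_NVP, scaled by TMM. Neither difference passed in edgeR, at 0.70 from PBS_vehicle (adjusted p = 0.415) and -0.83 for Bleo_NVP against Bleo_vehicle (adjusted p = 0.153). Cfap69 in alveolar type I nuclei read 5.56, 6.91 and 5.43 CPM in PBS_vehicle, 2.12, 2.75 and 9.74 in PBS_NVP, 14.5, 27.2 and 19.4 in Bleo_vehicle and 2.59, 7.27 and 6.16 in Bleo_NVP. The Bleo_vehicle values were the 3 highest, and in those nuclei Bleo_NVP was lower (-1.86 ± 0.52, edgeR, adjusted p = 0.0492, where 3.39% of all genes were called lower), while the difference between Bleo_vehicle and PBS_vehicle, 1.84 ± 0.49, missed the threshold (adjusted p = 0.0517). With Bleo_vehicle 1 and 2 left out these were -1.75 and 1.71.

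Dnah11 in other classes was looked at after its call, in fits of single classes. Which nuclei were named alveolar macrophages depended on the batch correction. Their largest cluster held 3431 nuclei with it and 2054 without it. The largest cluster of interstitial macrophages or monocytes held 1486 and 2522. The part of this in the levels of Dnah11 was not tested. In alveolar macrophages it read 346, 390 and 558 CPM in PBS_vehicle, 337, 305 and 447 in PBS_NVP, 15, 129 and 155 in Bleo_vehicle and 459, 260 and 534 in Bleo_NVP. Bleo_vehicle did not overlap any other group there. The differences were -1.91 ± 0.51 from PBS_vehicle (edgeR, adjusted p = 0.0522) and 1.89 ± 0.52 for Bleo_NVP against Bleo_vehicle (adjusted p = 0.0631), and neither passed. Leaving out Bleo_vehicle 1 and 2 gave -1.43 (adjusted p = 0.0578) and 1.41 (adjusted p = 0.063). In alveolar type I it read 48.2, 84.2 and 125, then 51.7, 90.6 and 128, then 29.9, 38.4 and 77.6, and 154, 105 and 113 in the 4 groups in the same order, where Bleo_NVP exceeded Bleo_vehicle by 1.30 ± 0.47 (adjusted p = 0.134), and by 0.72 without Bleo_vehicle 1 and 2. In aerocytes it read 573, 259 and 198 in Bleo_vehicle and 213, 224 and 168 in Bleo_NVP, a difference of -0.73 ± 0.37 (adjusted p = 0.459) with all libraries and of -0.01 without Bleo_vehicle 1 and 2. Without ciliated nuclei and without nuclei that had any of the 4 markers, Dnah11 was called higher in Bleo_NVP (0.81 ± 0.20, adjusted p = 0.0399, where 2.28% of all genes were called higher). Without ciliated nuclei alone it was 0.76 (adjusted p = 0.0547). Without both kinds of nuclei Cfap69 was called lower (-0.92 ± 0.24, adjusted p = 0.0413, where 3.8% were called lower). Without Bleo_vehicle 1 and 2 neither passed, at 0.79 for Dnah11 (adjusted p = 0.337) and -0.93 for Cfap69 (adjusted p = 0.282).

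**Figure D5:**
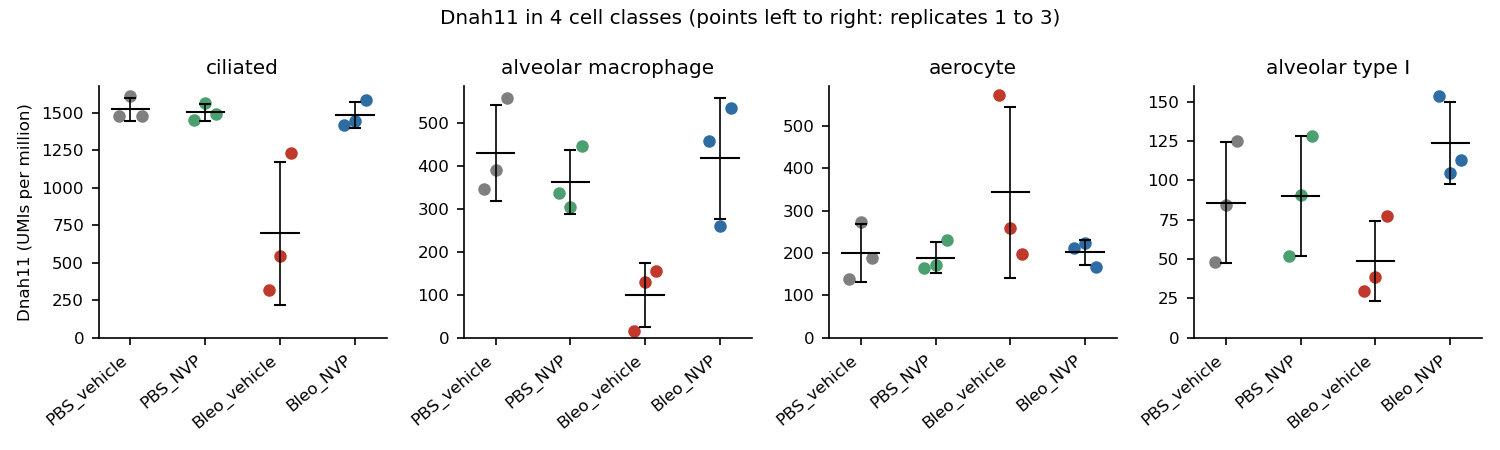
Dnah11 in CPM in each library (points, replicates 1 to 3 from left to right) with group mean and SD, in ciliated, alveolar macrophage, aerocyte and alveolar type I nuclei. In alveolar macrophages the 3 Bleo_vehicle points (15, 129 and 155) lie below all others, and in aerocytes the highest point (573) is Bleo_vehicle 1.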

How the data were processed

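The authors sorted DAPI-positive nuclei, prepared 10x 3' libraries (chemistry 3.1), aligned them to mm10 with Cell Ranger (7.0 in the processing notes, 7.2.0 in the file headers) and used Seurat (4.4.1 in the processing notes, another version in the study's methods). The deposited values are UMI counts per gene and barcode, whole numbers without normalization. Whether intronic reads were counted is not given in the sources used here. Gene coordinates came from GENCODE M21.

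From 49163 barcodes, nuclei with 200 to 6000 genes and at most 5% mitochondrial UMIs were kept, and 2708 doublets (scrublet scores, scanpy 1.11.5) were left out, leaving 44611. The 42 genes were removed, 2000 variable genes and 30 components corrected by library with the Harmony algorithm were used, and nuclei were clustered by Leiden (resolution 1). A cluster was named by the marker list with the highest mean fold, given at least 3 of its markers over 2-fold, unless its leading genes marked another class.

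UMIs were summed per library, over all kept nuclei (3521540 to 46457100 UMIs) or ciliated nuclei (60395 to 1950438), and fitted together for 4 groups with edgeR 4.0.16 (R 4.3.3): filterByExpr, TMM, robust two-sided quasi-likelihood test, Benjamini-Hochberg over all genes tested, no block. DESeq2 1.42.0 was the alternative. The fits were first tested on simulated data. Replicates are separate mice. Same-numbered PBS_vehicle and PBS_NVP libraries deviated together (correlations 0.773, 0.443 and 0.558, across genes). No label pairs these mice, and replicates 1 and replicates 2 of these groups also share a run number. Whether the numbers pair these groups was therefore not settled, and the main fit used no block. In each of the other group pairs at least 1 of the 3 correlations was under 0.1, so the numbers were not taken to pair them. CPM are UMIs of a gene over all UMIs of the sum, and limits on a count of 0 cover counting error only.

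Every Dnah gene is named. Of the Cfap genes, the 8 highest per kilobase in ciliated nuclei, the 5 with the smallest ratio of ciliated to other nuclei among those with a level of at least 5 CPM, and called genes are named, and any other was chosen after its values were seen. The genes and lists were chosen with earlier results of these data known. Fits of single classes, the sums without nuclei that had any of the 4 markers and the fits without both libraries of batch number 6 were chosen after seeing the data.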

Additional observations from a re-analysis of the deposited data

How the results depend on the processing

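Bleomycin groups were confounded with run or batch number, and 2 of 3 Bleo_vehicle libraries had ciliated nuclei with few cilia transcripts. The 3 mice a group limit every test, the smallest exact p for the ciliated share being 0.1. Shallow libraries (60395 ciliated UMIs in Bleo_vehicle 1) limit low genes such as Dnah1, Dnah14 and Cfap73. The test on markers called 32 to 41 genes in its 18 alternatives (35.1 to 63.0% of all genes), 32 to 39 without single libraries. Shares in parentheses below are those of all genes called in either direction in the same fit.

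In ciliated nuclei, the comparison of Bleo_NVP with Bleo_vehicle (1 gene called) gave 0 without a low count filter, with only the libraries compared, with nuclei held to 500 or more UMIs and a mitochondrial share of 1% or less (which left out Bleo_vehicle 1, with under 10 such ciliated nuclei), and without batch correction, and it gave 2 with the replicate block (Cfap74 and Cfap69; 7.35%), 3 in DESeq2 (Cfap74, Cfap69 and Dnah9; 5.6%) and 21 with doublets kept (15.9%). Bleo_vehicle against PBS_vehicle (0) gave 2 with the replicate block (Cfap99 and Cfap100; 4.42%), 2 in nuclei with at least 2 of 4 markers (Cfap65 and Cfap100; 2.79%) and 21 with doublets kept (11.8%), and the interaction (0) gave 10 with doublets kept (8.13%). Leaving out single libraries gave 0 to 30, 0 to 31 and 0 to 27 in these 3 comparisons, each highest without Bleo_vehicle 3 (25.2, 24.7 and 17.4%), and 0 in the other 2.

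In the whole lung, Bleo_NVP against Bleo_vehicle (1, Dnah11, higher) gave 0 with only the libraries compared, with the stricter filter on nuclei, and in alveolar macrophages or aerocytes alone. It gave 2 without ciliated nuclei and those with any of the 4 markers (Dnah11 higher and Cfap69 lower, 6.07%). Without ciliated nuclei it gave 3, all lower and without Dnah11 (Cfap69, Dnah9 and Cfap43, 6.37%). DESeq2 gave 4, all higher (Dnah11, Cfap74, Dnah9 and Cfap70, 11.9%). Bleo_vehicle against PBS_vehicle (0) gave 1 with the replicate block (Dnah11, -0.69, adjusted p = 0.0447; 6.76%) and 1 without ciliated nuclei (2.89%). Without single libraries the ranges were 0 to 18, 0 to 9 and, for the interaction, 0 to 2, each highest without Bleo_vehicle 3 (15.2, 8.99 and 1.43%). The log2 difference of Dnah11 between Bleo_NVP and Bleo_vehicle was called in 13 of 30 alternatives and turned to -0.73 in aerocytes alone, or to -0.0126 there without both libraries of batch number 6. Cfap74 was called in 6 of 22. Fits without both libraries of batch number 6 are among the 30 and 22 alternatives. They leave Bleo_vehicle 3 alone in its group, so the number of genes they called is not given. The replicate block changed no other call, and neither it nor the run number as a block called a gene between PBS_NVP and PBS_vehicle. Without single libraries the ciliated share differed by -0.763 to 1.72 percentage points between PBS_NVP and PBS_vehicle (-0.557 among the reversed values) by -0.924 to 1.56 between Bleo_NVP and PBS_NVP (-0.175) and by 0.962 to 2.05 between Bleo_NVP and Bleo_vehicle. The fits of single classes and those without batch number 6 or without nuclei that had a marker were chosen after seeing the data, and the cause of each change was not tested.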

Other observations

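The 63 other cilia genes were tested in the whole lung as well, where 54 passed the filter and none was called in any of the 5 comparisons in edgeR. Their median log2 difference was -0.48 between Bleo_vehicle and PBS_vehicle and 0.71 between Bleo_NVP and Bleo_vehicle, beside -0.51 and 0.70 for the Dnah and Cfap genes. In the fit without Bleo_vehicle 1 and 2 the medians of the 63 genes' tested members were 0.05 and 0.16. In ciliated nuclei the 14 tested genes of radial spokes and the central pair were all higher in Bleo_NVP than in Bleo_vehicle by sign, 8 of them at an unadjusted p under 0.05, beside 51.6% of all genes positive and 7.83% higher at that level. Of the 12 docking and nexin link genes, 12 were higher by sign and 4 at that level, and of the 7 dynein intermediate and light chains, 7 and 3. Without Bleo_vehicle 1 and 2 the 3 lists had 11, 10 and 5 positive differences, with medians of 0.26, 0.10 and 0.06.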
